A study of Mus musculus with 95 samples.

Results

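The adrenal gland lies against the upper pole of the kidney and makes steroid hormones in its cortex and catecholamines in its medulla. The levels of 9 genes that carry out these tasks were followed in kidney RNA from 95 mice, 1 kidney per array. The cortex genes were Cyp11b1, Cyp11a1, Cyp21a1, Star and Mc2r, and the medulla genes were Th, Dbh, Pnmt and Chga. The members were all probe sets whose only symbol in the array annotation was 1 of these 9 genes, which gave 15 probe sets of the 45037 tested, and 9 genes of the 17097 named on the array. Where a gene had several probe sets, the one with the largest average level in the 95 kidneys describes it, and the others are given beside it.

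The study asked how pristane, a hydrocarbon oil, speeds the kidney disease of female SNF1 mice, the lupus-prone F1 cross of SWR and NZB. Mice aged 9 weeks received pristane into the peritoneal cavity, and age-matched SNF1 mice that received no injection served as controls. No genotype or allele differed between the groups, and no group analysed here received a vehicle. There were 7 untreated mice before the study began (week 0). Week 2 held 10 untreated and 9 pristane mice, week 4 held 9 and 10, weeks 8 and 12 held 10 and 8 each, and week 14 held 5 and 9. The mice were 9, 11, 13, 17, 21 and 23 weeks old at weeks 0, 2, 4, 8, 12 and 14.

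In the cortex, the pituitary hormone ACTH binds its receptor Mc2r and raises the supply of cholesterol to mitochondria through Star. Cyp11a1 then cuts the cholesterol side chain, and Cyp21a1 and Cyp11b1 add the hydroxyl groups that make corticosterone, the main glucocorticoid of the mouse. In the medulla, Th makes the precursor of dopamine from tyrosine, Dbh turns dopamine into noradrenaline, Pnmt turns noradrenaline into adrenaline under the influence of cortical steroids, and Chga is packed with the hormones into secretory granules.

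RefSeq promoter windows on GRCm38.p6, from 250 bases before to 50 bases after the start site, were read for 4 of the 9 genes, namely Cyp11a1 with 2 windows, Th, Dbh and Chga. Member windows on a single chromosome were left out, so a window of another member may be missing. The windows of the medulla genes are shown because every kidney high for Th was also high for Chga, as described below, while the probe set that describes Dbh stayed within a narrow range. A further Dbh probe set did not, and ranged from 2.21 to 5.16. Whether the letters marked below bear on the levels was not tested. Capitals mark the letters TGACGT, the core of the cAMP response element, with the full element TGACGTCA in Th, and the letters TATAAA in Chga.
Th, chr7:142899946-142900245, minus strand: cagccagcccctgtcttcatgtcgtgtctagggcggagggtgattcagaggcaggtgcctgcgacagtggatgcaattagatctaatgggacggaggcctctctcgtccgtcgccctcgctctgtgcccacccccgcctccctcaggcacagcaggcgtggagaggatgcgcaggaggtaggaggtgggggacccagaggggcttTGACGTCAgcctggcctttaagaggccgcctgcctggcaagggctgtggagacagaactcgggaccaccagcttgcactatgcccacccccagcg
Chga, chr12:102554691-102554990, plus strand: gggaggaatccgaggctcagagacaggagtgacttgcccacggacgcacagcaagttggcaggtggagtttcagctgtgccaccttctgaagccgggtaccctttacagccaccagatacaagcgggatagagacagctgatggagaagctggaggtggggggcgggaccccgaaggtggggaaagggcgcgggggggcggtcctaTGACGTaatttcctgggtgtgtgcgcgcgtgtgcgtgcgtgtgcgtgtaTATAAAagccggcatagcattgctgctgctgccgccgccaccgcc
Dbh, chr2:27165257-27165556, plus strand: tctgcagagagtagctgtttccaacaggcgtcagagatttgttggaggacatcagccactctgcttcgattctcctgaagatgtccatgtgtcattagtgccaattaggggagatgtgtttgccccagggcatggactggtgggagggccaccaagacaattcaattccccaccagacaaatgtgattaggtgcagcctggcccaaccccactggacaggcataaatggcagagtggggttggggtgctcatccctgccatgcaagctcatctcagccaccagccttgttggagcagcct
Searched on both strands, the full element TGACGTCA was held by 1.79% of 32851 promoter windows and its core TGACGT, which lies within it, by 7.51%. The Th window held the full element from 45 to 38 bases before the start, and the Chga window held the core from 44 to 39 bases before it. TATAAA was held by 13.6% of windows, and in that of Chga it lay from 5 to 10 bases after the start. The letters AAGGTCA, to which the steroidogenic factor Nr5a1 binds, were held by 4.72% of windows. They were in none of the 5 member windows read, and no searched letters were in the Dbh window or the windows of Cyp11a1. A match of letters is a description of the window and not a measured binding site.

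All levels below are log2 values, and the lowest value the table holds is 2.21, which 18.6% of all values share. The array medians ran from 4.22 to 4.57. The labelled tissue was checked with 6 measured kidney genes of 10 listed (Umod, Slc12a1, Slc12a3, Aqp2, Nphs1 and Kap), whose mean lay between 9.67 and 10.68 in every sample.

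In most kidneys Cyp11b1 and Mc2r were at or near the lowest value of the scale, and each of the 5 cortex genes stood far above its median in some. Cyp11b1, the last enzyme on the way to corticosterone, ranged from 2.21 to 9.25 with a median of 2.24, and 39 of 95 kidneys were at the lowest value. The kidneys fell into separate sets, with 54 at or below 3.06 and 41 at or above 4.43. Mc2r, the ACTH receptor, ranged from 2.21 to 8.13 and was at the lowest value in 56 kidneys. Star ranged from 4.54 to 11.03 around a median of 5.36. Cyp11a1 ranged from 3.46 to 10.52 around a median of 4.62, and Cyp21a1 from 5.65 to 11.99 around 6.79.

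The medulla genes had the same form with fewer kidneys in the upper range. Chga, the granule protein, ranged from 4.69 to 9.68 with a median of 5.19. Th, the first enzyme of catecholamine synthesis, ranged from 2.21 to 6.04. Its lower quartile and its median were both 2.354, a value that many kidneys shared, and its upper quartile was only 2.99. Pnmt, which makes adrenaline, ranged from 2.28 to 6.43 around 2.55. Dbh stayed between 2.97 and 4.94 around a median of 3.55.

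**Figure D1:**
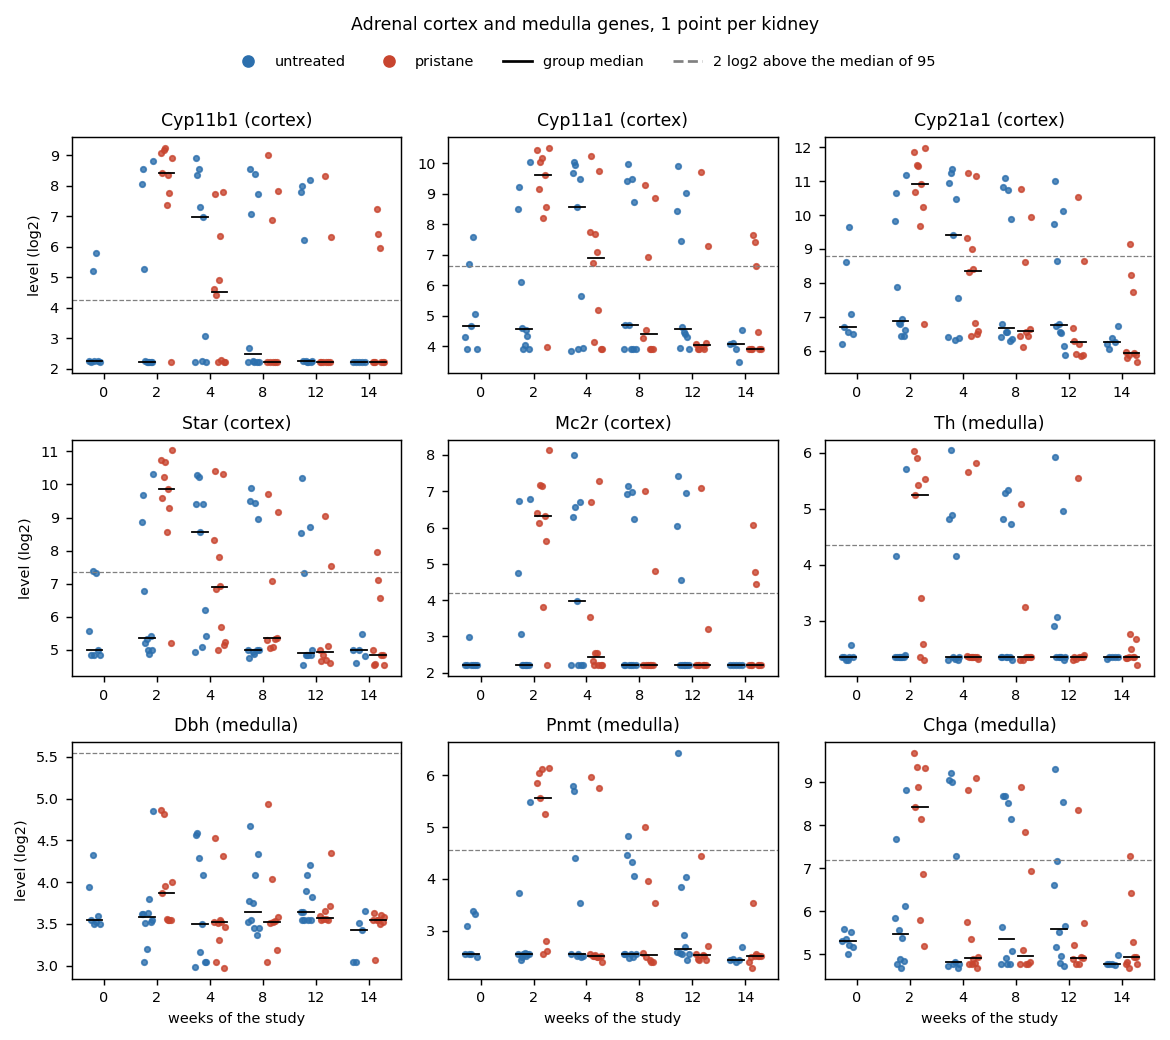
Level of each of the 9 genes (log2, vertical axis, its own scale in each panel) by week of the study (horizontal axis), with 1 point per kidney, untreated in blue and pristane in red. Black lines are group medians and the dashed line lies 2 log2 units above the median of all 95 kidneys. Cyp11b1 was high in 8 of 9 pristane kidneys at week 2, against 4 of 10 untreated kidneys of that week, and Dbh crossed its line in none.

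To count kidneys, a kidney was called high for a gene when its value lay more than 2 log2 units above the median of that probe set over all 95 kidneys. Cyp11b1 was high in 41 kidneys, Cyp11a1 in 40, Star in 33, Cyp21a1 in 32 and Mc2r in 30. Chga was high in 24, Th in 19, Pnmt in 14 and Dbh in 0. The gap at this limit was wide for Cyp11b1, as given above, and narrow for Star, with 7.39 above and 7.33 below, and for Chga, with 7.28 above and 7.17 below.

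The high kidneys were nested for the probe sets that describe the genes. By these, every kidney that was high for any member was high for Cyp11b1, and 54 kidneys were high for none. All 24 kidneys with a high medulla gene also had a high cortex gene, 17 kidneys had a high cortex gene alone, and 0 had a high medulla gene alone. All 5 cortex genes were high in 27 kidneys. Of these, 13 had 3 high medulla genes, 7 had 2, 3 had 1 and 4 had 0. The medulla genes stood less far above their medians, by at most 4.48 for Chga against 7.01 for Cyp11b1, and the part of this smaller range in the nesting was not tested.

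The kidneys with the highest cortex values were those in which the medulla genes appeared. Th was high in 19 kidneys, and the lowest Cyp11b1 among them was 7.09, a level reached by 28 kidneys. The same 19 kidneys had the 19 highest values of Chga, with 8.136 the lowest of them and 8.135 the highest of the rest. Pnmt was high in 14 kidneys, 13 of which were also high for Th and 14 for Chga. The exception for Th was mouse 6 of the pristane week 2 group, with Pnmt at 5.26, Chga at 8.13 and Th at 3.41.

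In some kidneys cortex genes were high and no medulla gene was. Mouse 1 of the untreated week 2 group had Cyp11b1 at 8.07 and Star at 8.86, with Th at 2.35 and Pnmt at 2.55, the medians of all kidneys, and Chga at 5.84, above its median but under its limit. Mouse 1 of the untreated week 12 group had Cyp11b1 at 7.80 and Mc2r at 6.04, with Pnmt at 2.58, Th at 2.91 and Chga at 6.61, again above its median and under its limit. Mouse 5 of the untreated week 4 group had Cyp11b1 at 7.30 and Cyp11a1 at 8.57, with Chga at 4.79 and Th at 2.35. In these kidneys Cyp11b1 stood at levels at which Th was high in others. Of the 24 kidneys with a high medulla gene, 23 had all 5 cortex genes high, and mouse 4 of the pristane week 8 group did not. It was high for Cyp11b1 (6.89), Cyp11a1 (6.94) and Chga (7.83). Its Mc2r was at the lowest value, 2.21, and its Star (7.10), Cyp21a1 (8.63) and Pnmt (3.95) were under their limits.

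Kidneys with intermediate cortex values came from several groups, and 4 of them from the pristane week 4 group. There, mice 1, 3 and 5 had Cyp11b1 at 4.62, 4.43 and 4.91 and Chga at 5.75, 4.77 and 4.77. Mouse 6 of that group had Cyp11b1 at 6.35 and Chga at 4.91. All 4 had Th between 2.35 and 2.38, close to its median over all kidneys. Mice 2 and 8 of the same group had Cyp11b1 at 7.74 and 7.79, Th at 5.64 and 5.82 and Chga at 8.82 and 9.09.

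**Figure D2:**
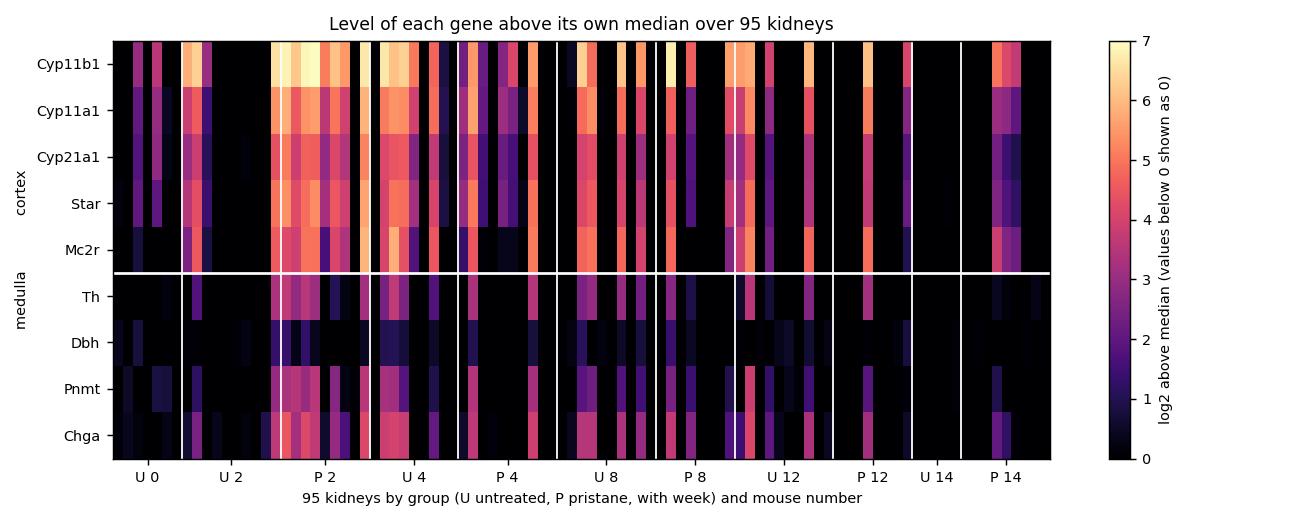
Each column is 1 of the 95 kidneys, sorted by group (U untreated, P pristane, with the week) and mouse number, and each row a gene, cortex above and medulla below the white line. Colour gives the log2 level above the median of that gene over all kidneys, with values below 0 drawn as 0. Bright columns run through the 5 cortex genes in 27 kidneys that were high for all of them, and 23 of these were also high for at least 1 medulla gene.

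By group, kidneys with a high cortex gene were found in 10 of the 11 groups. At week 0, before any injection, they were 2 of 7. Week 2 had 4 of 10 untreated and 8 of 9 pristane kidneys with such a gene, and week 4 had 5 of 9 and 6 of 10. Week 8 had 4 of 10 and 3 of 8, week 12 had 4 of 10 and 2 of 8, and week 14 had 0 of 5 and 3 of 9. A high medulla gene was seen in 0, 2, 4, 4, 2 and 0 untreated kidneys at weeks 0, 2, 4, 8, 12 and 14, and in 6, 2, 2, 1 and 1 pristane kidneys at weeks 2, 4, 8, 12 and 14. In bulk RNA, more cells of a type and more RNA per cell cannot be told apart. Whether the adrenal was trimmed from the kidneys was not given in the sources used here. The part of adrenal tissue carried along in these levels and in the group differences below was not tested.

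**Figure D3:**
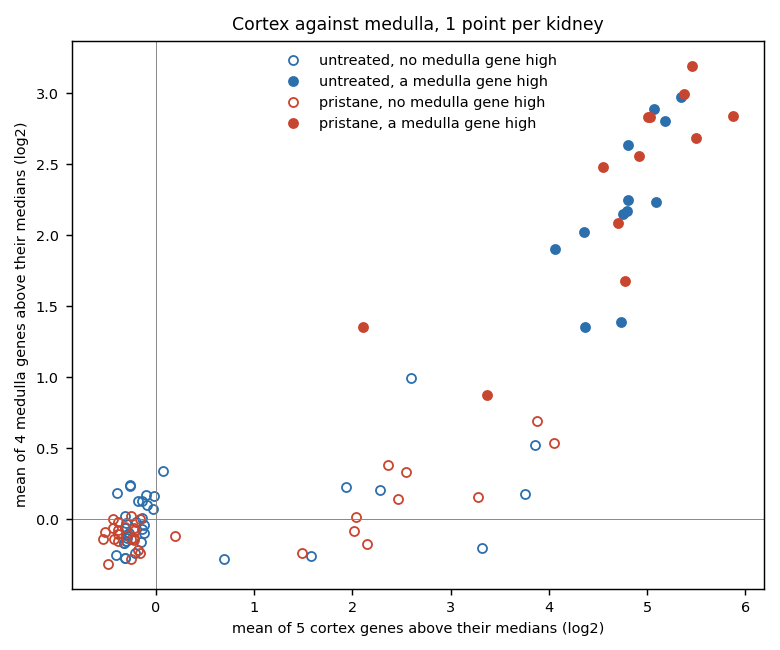
Each point is a kidney, with the mean height of the 5 cortex genes above their medians on the horizontal axis and that of the 4 medulla genes on the vertical axis, both in log2 units. Blue is untreated, red is pristane, and filled points had at least 1 high medulla gene. The 24 filled points lie at 2.107 or above on the horizontal axis, and the upper left of the plot, where medulla genes would be raised without cortex genes, is empty.

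Between mice of the same group, 8 of the 9 probe sets that describe the genes were among the 71 most variable on the array, and that of Dbh was not. The SD within groups, pooled over the 11 groups, was 2.54 for Cyp11b1, which ranked 4 among 45037 probe sets, and 2.25 for Cyp11a1, which ranked 5. Star (1.90) ranked 10, Mc2r (1.88) 11 and Cyp21a1 (1.77) 13. Of the medulla genes, Chga (1.51) ranked 21, Th (1.18) 48, Pnmt (1.08) 71 and Dbh (0.445) 1278. The median probe set had an SD of 0.179. The probe set with the highest SD of all, 3.31, belonged to Hsd3b1, an enzyme that acts between Cyp11a1 and Cyp21a1 in the cortex.

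The other probe sets of the members mostly gave the same picture. The pair of further Star probe sets followed the first with r of 0.985 and 0.979 over 95 kidneys after group means were removed, and were high in 34 and 33 kidneys. The second Cyp21a1 probe set followed with r of 0.895 and was high in 14 kidneys. Mouse Cyp21a1 has a near-identical pseudogene, and probes may not separate the copies. The second Cyp11a1 probe set did not follow the first. It stayed between 4.05 and 5.79, was high in 0 kidneys, and had r of 0.199 with the first. Its SD within groups was 0.254, which ranked 10013 among 45037 probe sets. The further Dbh probe sets followed the first with r of 0.625 and 0.641. One of them was at the lowest value in 68 kidneys, reached 5.16 and was high in 5. The other, of a type that can bind related sequences, reached 5.51 and was high in 1. That kidney, mouse 2 of the untreated week 8 group, had Cyp11b1 at 2.70 and 0 high cortex genes, so it lay outside the nesting described above.

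At week 2 all 9 members had higher means after pristane than in untreated kidneys of that week, but the mice of each group varied so much that 0 of 9 passed an adjusted p of 0.05, against 0.249% of all probe sets called in either direction. In untreated kidneys Cyp11b1 had a lowest value of 2.21, a median of 2.23 and a highest of 8.81. After pristane it had a lowest value of 2.21, a median of 8.42 and a highest of 9.25. The groups overlapped, and 4 of 9 pristane kidneys lay above every untreated kidney. The means were 4.40 ± 2.98 (SD, n = 10) and 7.83 ± 2.21 (SD, n = 9), a difference of 3.43 ± 1.20 (SE) or 10.8-fold, with an adjusted p of 0.458 by limma.

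The other cortex genes also had higher means after pristane, with overlapping groups. Cyp11a1 ran from 3.90 to 10.04 with a median of 4.56 in untreated kidneys, and from 3.98 to 10.52 with a median of 9.62 after pristane. Its difference was 3.06 ± 1.02 (SE), with an adjusted p of 0.429 by limma. Star had medians of 5.37 and 9.85 and a difference of 2.82 ± 0.90 (SE; adjusted p 0.387, limma). For Cyp21a1 the medians were 6.89 and 10.92 and the difference 2.61 ± 0.79 (SE; adjusted p 0.345, limma). For Mc2r they were 2.21 and 6.33, with a difference of 2.42 ± 0.85 (SE; adjusted p 0.464, limma). For all 5 cortex genes mouse 8 had the lowest value of the pristane kidneys.

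Of the medulla genes at week 2, Chga ran from 4.69 to 8.82 with a median of 5.46 in untreated kidneys and from 5.19 to 9.68 with a median of 8.42 after pristane. Its difference was 2.10 ± 0.68 (SE), or 4.29-fold, with an adjusted p of 0.394 by limma. Pnmt had medians of 2.55 and 5.55 and a difference of 1.83 ± 0.59 (SE; adjusted p 0.398, limma), and 5 of 9 pristane kidneys were above every untreated one. Th had medians of 2.35 and 5.24 and a difference of 1.44 ± 0.63 (SE; adjusted p 0.636, limma). Dbh differed by 0.33 ± 0.23 (SE; adjusted p 0.846, limma), with medians of 3.58 and 3.86. At an unadjusted p under 0.05, 8 of 9 members were higher after pristane at week 2, and 3.45% of all probe sets were. The median difference was 2.82 over the cortex genes, 1.63 over the medulla genes and -0.00068 over all probe sets.

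Compared with the untreated mice of all weeks, 51 in number and aged 9 to 23 weeks, 6 of the 9 members passed at week 2, namely Cyp11b1, Cyp11a1, Cyp21a1, Star, Pnmt and Chga, with adjusted p from 0.0172 to 0.0415 by limma. This comparison mixes ages, and it called 1109 probe sets in all against 112 with the week 2 controls.

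At later weeks no member passed in either direction. At week 4, where 0.138% of all probe sets were called, the differences ran from -1.11 for Mc2r to -0.12 for Dbh with a median of -0.56. Both groups then held high kidneys, with Cyp11b1 medians of 6.98 in untreated and 4.52 in pristane kidneys. At week 8, where 0.0866% were called, the median difference was -0.41 and Cyp11b1 had medians of 2.47 and 2.21. At week 12, where 0.0244% were called, the median difference was -0.80. At each of these 3 weeks 0 of 9 members reached an unadjusted p under 0.05, which 4.88%, 3.63% and 6.17% of all probe sets did. All 9 differences were below 0 at weeks 4, 8 and 12, by less than the spread between mice. Of the further probe sets, the Dbh probe set that can bind related sequences differed by -0.57 ± 0.25 (SE) at week 12, with an adjusted p of 0.790 and an unadjusted p of 0.0352 by limma, and 5 of 8 pristane kidneys lay below every untreated one.

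At week 14, where 8.31% of all probe sets were called, 0 of 9 members passed, and the median difference was 0.52. None reached an unadjusted p under 0.05 either, as 23.7% of all probe sets did. In the 5 untreated kidneys Cyp11b1 and Mc2r were all at the lowest value, 2.21, and Star ran from 4.61 to 5.47. In the 9 pristane kidneys Cyp11b1 was at the lowest value in 6, and mice 4, 5 and 6 had 7.24, 6.41 and 5.97. The same 3 mice had Mc2r at 6.06, 4.78 and 4.46 and Star at 7.95, 7.11 and 6.58. Th did not exceed 2.77 in any kidney of week 14. The difference for Cyp11b1 was 1.44 ± 0.98 (SE), with an adjusted p of 0.446 by limma.

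**Figure D4:**
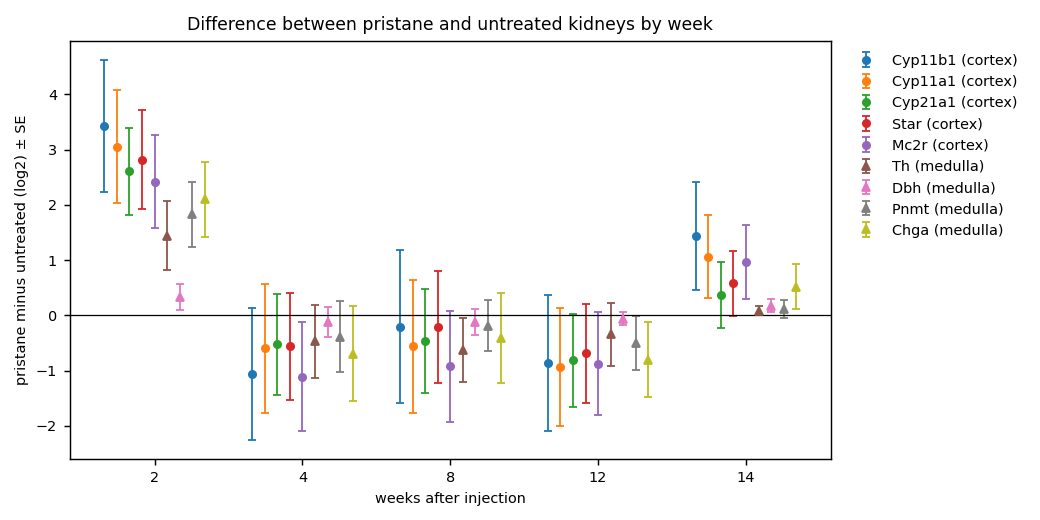
Difference between the pristane and untreated means (log2, vertical axis) with its standard error for each of the 9 genes at weeks 2, 4, 8, 12 and 14 (horizontal axis). Circles are cortex genes and triangles medulla genes. The differences at week 2 ran from 0.33 for Dbh to 3.43 for Cyp11b1, those at weeks 4, 8 and 12 lay below 0, and none passed an adjusted p of 0.05.

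Whether the pristane difference itself changed over time was tested by an interaction across the 5 weeks, in which 12.5% of all probe sets passed. None of the 9 members did, with adjusted p from 0.0800 for Pnmt to 0.776 for Dbh by limma. At an unadjusted p under 0.05, 5 of 9 did (Cyp21a1, Star, Mc2r, Pnmt and Chga), against 22.1% of all probe sets. Of the further probe sets, the second of Cyp21a1 passed (adjusted p 0.0126, limma). From week 2 to week 4 the difference dropped by 4.49 ± 1.68 (SE) for Cyp11b1 and by 2.21 ± 0.72 (SE) for Pnmt, which gave an adjusted p of 0.751 and 0.599 by limma, and 0.0488% of all probe sets passed there. Over the 11 groups together, 7 of 9 members differed, against 54.9% of all probe sets. Th (adjusted p 0.0659, limma) and Dbh (0.564) did not pass, and Cyp21a1 (0.00171) and Star (0.00206) had the smallest values. The 9 pristane mice of week 2, the group with the highest member means, were then left out, a choice made after seeing the data. Without them 0 of 9 members passed, with adjusted p from 0.225 to 0.817 by limma, while 23533 probe sets still did. In the 51 untreated mice alone, where 32.9% of probe sets differed between the 6 weeks, 0 of 9 members did, with adjusted p from 0.304 to 0.680 by limma, and 0 of 9 had an unadjusted p under 0.05 against 42.6% of all probe sets. The second Cyp11a1 probe set passed there (adjusted p 0.0440, limma).

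In the order of the group means, the pristane week 2 group stood highest and the untreated week 14 group lowest for all 9 members. For 8 of them, Dbh being the exception, the untreated week 4 group came second. Cyp11b1 averaged 7.83 ± 2.21 (SD, n = 9) in the first and 5.53 ± 3.01 (SD, n = 9) in the second. Of 90 gaps between neighbours in these orders, 1 was larger than the larger SD of the pair, that of Chga between the untreated groups of week 0 at 5.31 ± 0.20 (SD, n = 7) and week 14 at 4.81 ± 0.10 (SD, n = 5).

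Other genes of the adrenal were read from lists. Of 10 further cortex genes, 8 were measured. Hsd3b1 ranged from 3.08 to 12.12 and was high in 43 kidneys, 41 of which had a high cortex member. Nr5a1, the transcription factor that turns on the steroid enzymes, was at the lowest value in 62 kidneys, reached 5.79, and was high in 9, all with a high cortex member. Mrap, the partner that carries Mc2r to the cell surface, ranged from 3.13 to 5.86 and was high in 0. Nr0b1, Fdx1 and Gramd1b were also high in 0 kidneys, and Agtr1b was high in 1. Cyp11b2, the aldosterone synthase and a close relative of Cyp11b1, stayed between 2.21 and 3.004 and was at the lowest value in 79 kidneys. Its sequence is so near to that of Cyp11b1 that probes for the one may bind the other. At week 2, 0 of these 8 genes passed, against 0.249% of all probe sets, and 5 were higher at an unadjusted p under 0.05, against 3.45%. At the later weeks 0 passed.

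Of 7 genes of cholesterol supply 4 were measured, and 0 passed at any week. Scarb1, the receptor that takes cholesterol from high-density lipoprotein, ranged from 4.58 to 9.87 and was high in 8 kidneys, all with a high cortex member. Lipe stayed between 4.17 and 6.46 and Stard4 between 8.08 and 10.52.

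Of 24 further medulla genes, 21 were measured, and 0 passed at week 2, where 8 were higher and 1 lower at an unadjusted p under 0.05, as were 3.45% and 3.69% of all probe sets. The granule proteins Chgb and Scg2 reached 10.75 and 8.53 and were high in 31 and 28 kidneys, each of which had a high cortex member. Resp18 and Snap25 were high in 20 and 18 kidneys, again all with a high cortex member. Others of the list, namely Gch1, Scg3, Scg5, Phox2a, Hand2, Cyb561, Npy, Penk and Slc6a2, were high in 0 kidneys. Over 95 kidneys with group means removed, their r with the mean of the medulla members ran from -0.169 for Slc6a2 to 0.682 for Gch1. It was also below 0 for Penk (-0.032) and Hand2 (-0.025). The 3 medulla genes that passed did so at week 14, where each was lower after pristane, as were 3.73% of all probe sets. They were Ddc, which makes dopamine, with a difference of -0.90 ± 0.21 (SE; adjusted p 0.0269, limma), the vesicle transporter Slc18a1, with -0.96 ± 0.25 (SE; adjusted p 0.0397, limma), and the transcription factor Gata3, with -0.26 ± 0.07 (SE; adjusted p 0.0377, limma). Their levels in all 95 kidneys were 8.54 to 10.54, 8.33 to 10.10 and 5.94 to 7.46. Unlike Th and Chga, they had no kidney more than 2 above the median, and their r with the mean of the medulla members was 0.089, -0.087 and 0.079.

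Markers of other tissues that could lie beside a kidney were read in the same way. None of 6 nerve genes (Elavl4, Gap43 and Tubb3 varied most) exceeded 3.81, and Nefm and Prph were at the lowest value in 93 and 90 kidneys. None of 7 ovary genes, Zp3, Amh and Inhba among them, exceeded 3.46. The summed level of the nerve genes had a log2 of 4.83 to 5.29, and that of the ovary genes 5.26 to 5.75. Of 5 pancreas, 4 striated muscle and 4 urothelium genes, 0 were high in any kidney, and the list mean of these was more than 1 above its median in 0 kidneys. Cela1, Ctrb1 and Cela2a varied most among the pancreas genes, with Ctrb1 at most 3.79 and Cela1 at 7.57 to 9.72 in every kidney. Ckm, Myh4 and Tnnt3 varied most among the muscle genes, none above 4.47. Upk1b, Upk3a and Upk2 varied most among the urothelium genes, none above 6.66.

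Fat markers varied more. The mean of 5 measured fat genes of 8 listed ranged from 5.20 to 10.13, and Adipoq, the fat cell hormone adiponectin, from 2.25 to 10.51. Ucp1, which makes heat in brown fat, ranged from 4.33 to 10.79, and Retn from 3.84 to 10.34. The mean was more than 1 above its median in 15 kidneys, of which 7 had a high cortex member. Over 95 kidneys with group means removed, the fat mean had r of 0.326 with the cortex mean and 0.275 with the medulla mean, given as a description. The group median of the fat mean was 8.44 in pristane and 7.86 in untreated kidneys at week 2. At weeks 4, 8, 12 and 14 it was 7.35, 7.75, 7.45 and 6.65 in pristane kidneys and 8.60, 8.02, 7.85 and 7.42 in untreated kidneys. The fat mean thus had the higher median after pristane at week 2 and the lower at the later weeks. None of the 5 fat genes passed at any week by limma. At an unadjusted p under 0.05, 0 of 5 were lower after pristane at week 2, and 2, 1, 1 and 3 at weeks 4, 8, 12 and 14, against 1.95%, 0.899%, 1.73% and 13.4% of all probe sets at those 4 weeks. The part of fat in the member levels was not tested. Of 5 liver genes, Alb and Apoa2 passed at week 14, where 3.73% of all probe sets were called lower after pristane. Both were lower, by -1.10 ± 0.24 (SE; adjusted p 0.0219, limma) and -1.19 ± 0.33 (SE; adjusted p 0.0462, limma). Of the 6 kidney genes, Slc12a3, the salt transporter of the distal tubule, passed at week 14, against the same 3.73% of all probe sets. It was lower after pristane by -1.08 ± 0.31 (SE; adjusted p 0.0492, limma). The kidney mean had a group median of 10.44 in untreated and 10.39 in pristane kidneys at week 2.

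The genes most like the members were found by their correlation with the mean of the standardised cortex or medulla members over 95 kidneys, after group means were removed. These values are descriptions, since all genes share the same arrays and normalization and the kidneys form separate sets by Cyp11b1. Of 17088 genes compared, 28 had r over 0.8 with the cortex mean and 34 with the medulla mean, and the median gene had r of -0.04 and -0.03. With the cortex mean the 10 nearest were Akr1cl (0.984), Cyp2f2 (0.973), Hsd3b1 (0.971), Kcnk3 (0.945), Ecrg4 (0.927), Oxtr (0.924), Chgb (0.920), Scarb1 (0.917), Adh7 (0.915) and Trank1 (0.912). Akr1cl reached 11.65 from a median of 3.39, and Kcnk3, a potassium channel, 10.09 from 7.005.

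With the medulla mean the 10 nearest were Rian (0.943), Resp18 (0.941), Scg2 (0.939), A930009L07Rik (0.917), Chgb (0.917), Meg3 (0.916), Dlk1 (0.914), Snap25 (0.911), Gal (0.907) and Hamp2 (0.899). Scg2, Chgb and Resp18 are proteins of secretory granules, Snap25 drives their release, and Gal is a neuropeptide. Dlk1, Meg3 and Rian lie together in 1 imprinted region. Chgb was the 1 gene in both sets of 10, with r of 0.920 and 0.917. Hsd3b1 and Akr1cl leaned to the cortex, with r of 0.739 and 0.778 with the medulla mean, and Dlk1 and Gal to the medulla, with r of 0.755 and 0.730 with the cortex mean.

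**Figure D5:**
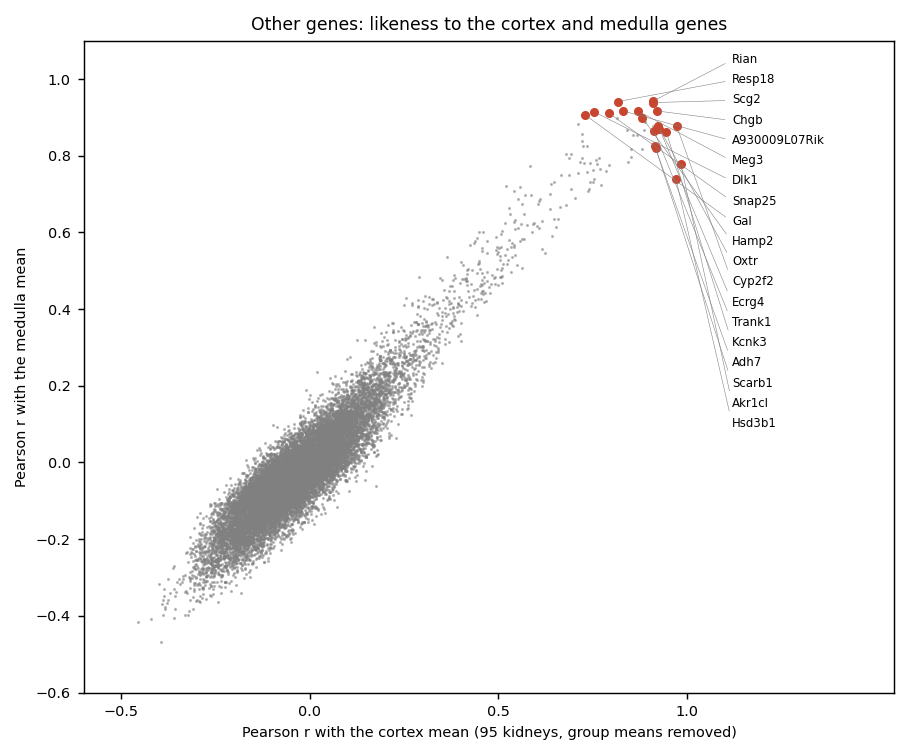
Each grey point is 1 of 17088 genes, with its Pearson r with the cortex mean on the horizontal axis and with the medulla mean on the vertical axis, over 95 kidneys with group means removed. Red points with names are the 19 genes among the 10 nearest to either mean. Most genes lie around 0 on both axes, and the named genes stand at the far upper right.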

How the data were processed

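Kidney total RNA of 95 mice was labelled with biotin and hybridized to Affymetrix HT MG-430 PM plates. The deposited log2 values were normalized by the authors with RMA, and the submitters' processing notes also name Partek. Which of 2 longitudinal experiments a mouse came from was not given in the sources used here. The table held 45141 probe sets, of which 104 Affymetrix controls were left out. In the array annotation 28898 probe sets had 1 symbol, 551 several and 15588 none. Precision is set by how many arrays each group had, and p-values measure the spread between mice.

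Pristane and untreated mice of the same week were compared with limma 3.58.1 in R 4.3.3 (lmFit, eBayes), with Benjamini-Hochberg adjustment over all 45037 probe sets. A probe set was called at an adjusted p under 0.05. F tests covered the 11 groups, the 6 untreated weeks and the interaction over 5 weeks. The fits were tested on simulated data drawn from normal distributions. Such data do not have the members' ties at the lowest value, so this test does not speak to the p-values of the members. Named genes were the 9 members, up to 5 genes per list that passed in any week or otherwise the 3 with the highest SD, and the 10 genes nearest to each mean. Members and lists were chosen with earlier results of these data known. Cyp11b2, Nr0b1, Fdx1, Gramd1b, Agtr1b, Nefm, Prph and the further medulla genes named as high in no kidney were named after their values were seen. Alternatives covered scaling, filtering, the controls, the replicate block, probe set averaging, thresholds and leaving out each mouse. No pair of arrays was identical, the highest correlation being 0.998.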

Additional observations from a re-analysis of the deposited data

Results flagged for a closer look

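In 20 of 99 combinations of a gene and a group, 1 kidney stood apart from the others by Dixon's 95% limit. Chance passes that limit in about 1 of 20 groups of independent, normally distributed values. Many values here were tied or fell into separate sets, and the same kidneys recurred across genes, so the count cannot be set against that rate. The 20 combinations involved 12 kidneys. In the pristane week 2 group mouse 8 was the lowest, with Cyp11b1 at 2.209 (next 7.353), Cyp11a1 at 3.980 (next 8.211), Cyp21a1 at 6.778 (next 9.687) and Star at 5.208 (next 8.558), so this was the 1 kidney of that group without high cortex genes. In the pristane week 12 group mouse 4 was the highest, with Mc2r at 7.090 (next 3.218), Th at 5.553 (next 2.395), Pnmt at 4.441 (next 2.705) and Chga at 8.360 (next 5.722), and mouse 8 was the highest for Dbh at 4.346.

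Other kidneys stood highest for single genes. At week 0, mouse 3 had Mc2r at 2.996, where the other 6 kidneys were at the lowest value, and mouse 6 had Th at 2.565. Mouse 10 of the untreated week 2 group had Dbh at 4.852 and Pnmt at 5.491. Mouse 2 of the pristane week 8 group had Th at 5.076, and mouse 2 of the untreated week 12 group had Pnmt at 6.431. Mouse 4 of the pristane week 14 group had Pnmt at 3.526, and mouse 3 was the lowest for Dbh at 3.065. In the untreated week 14 group the stray values lay close to the rest, with Th at 2.317 in mouse 1 (next 2.354), Pnmt at 2.685 in mouse 5 (next 2.459) and Chga at 4.984 in mouse 5 (next 4.771).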

How the results depend on the processing

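The count of 0 members called held at each week under centring, quantile normalization, a filter at the 40th percentile (which left 7 of 9 members), trended and robust variances, a single fit of all groups, a mean over probe sets and a fold limit of 2, and at 0 in every fit without 1 mouse. With all untreated mice as controls it became 6 at week 2, with 1109 probe sets called in all. That setting turned the difference above 0 at week 4 for Cyp11b1 (0.24), Cyp11a1 (0.69), Cyp21a1 (0.49), Star (0.66), Th (0.015) and Pnmt (0.050), at week 8 for Cyp11b1 (0.11), Star (0.0083) and Chga (0.012), and at week 12 for Dbh (0.0097). At week 14 it turned it below 0 for Cyp11b1 (-0.58), Cyp11a1 (-0.88), Cyp21a1 (-1.20), Star (-0.95), Mc2r (-0.38), Th (-0.58), Dbh (-0.17), Pnmt (-0.53) and Chga (-0.64). The mean over probe sets gave -0.053 for Dbh at week 14. Leaving out 1 mouse at a time gave -0.87 to 0.24 for Cyp11b1 and -0.68 to 0.13 for Star at week 8, and -0.0068 to 0.16 for Pnmt at week 14. The cause of these turns was not tested.

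Over the 11 groups, 7 members were called, with 24745 of 45037 probe sets called in all. At an adjusted p under 0.01 the count became 2, with 20029 in all. Without the pristane mice of week 2 it became 0, with 23533 in all. That alternative and the next ones were chosen after seeing the data. The count was 7 without the untreated mice of week 14, with 24635 in all, and 5 to 8 when each mouse was left out. High kidneys numbered 10 for Th at a limit of 3, 7 for Dbh at a limit of 1, and 23 and 9 for Pnmt at limits of 1 and 3.

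Replicate numbers were not treated as pairs in the main fits. At weeks 2 and 4, correlations over 0.1 were seen in 4 of 9 and 2 of 9 numbers. At weeks 8, 12 and 14 they were seen in 3 of 8, 3 of 8 and 2 of 5. These counts cannot show whether the mice were paired. With the replicate block, 0 members were called at each week, and calls over all probe sets went from 112, 62, 39, 11 and 3741 to 39, 0, 0, 227 and 0. Correlations between members and their alternatives were not run, because the kidneys form separate sets by Cyp11b1, although the gap was narrow for Star and Chga. Levels at 2.21 have no order, and a difference against such a group depends on that lowest value.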
